A study of Mus musculus with 800 samples.

Results

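Multiple-cell chambers are capture chambers of a microfluidic chip that the submitters labelled as holding more than 1 cell, and 63 of the 800 chambers carry that label. They were compared with the chambers labelled as holding a single cell, which made up 49.2% of the 800, so that 457 chambers entered the comparison. The chambers labelled empty (40.6%) served as background, and the 18 labelled putative single-cell were kept apart from the main comparison. How each chamber was scored, and how many cells a multiple-cell chamber held, are not given in the sources used here. Chamber numbers below only name the chambers.

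The chip, a Fluidigm C1 HT circuit, captures dissociated cells in nanolitre chambers, and the 3′ ends of their transcripts are tagged with 5-base molecular identifiers before amplification. All chambers came from 7 male mice of the strain B6;129P2-Omptm3Mom/MomJ with the genotype OMP(GFP/wt), aged 9 weeks (66 days), in which 1 copy of the olfactory marker protein gene Omp carries green fluorescent protein. Cells of the vomeronasal epithelium were pooled from 3 and from 4 mice, sorted as GFP+/Hoechst+/DRAQ7- and loaded on the chip with 1 pool on each side. The labels do not say which pool a chamber received, so each group of chambers counts as 1 sample: no test was made, no p-value is given, and shares carry exact Clopper-Pearson 95% intervals that cover counting error only.

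Vomeronasal sensory neurons detect pheromones and other social cues, and lie in layers of the epithelium. Apical neurons express the G protein subunit gene Gnai2 and, as a rule, a receptor of the V1R family, and basal neurons express Gnao1 and a receptor of the V2R family together with a family C V2R co-receptor. Each mature neuron is thought to express 1 or very few receptor genes, and markers of the layers rarely meet in 1 cell. Sustentacular cells, the supporting cells of the epithelium, do not express Omp.

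Multiple-cell chambers yielded more counts and more genes than single-cell chambers, but well under 2 times as many. Their total count ranged from 10439 to 306300, and its median was 181883. Single-cell chambers ranged from 6521 to 260930 around a median of 149648, so that the ratio of the medians was 1.22. The groups overlapped widely. With single-cell chambers weighted so that each title row, an index in the chamber's name, counted as it did among multiple-cell chambers, the ratio was 1.20. Of the multiple-cell chambers, 49 of 63 (77.8%, interval 65.5 to 87.3%) lay above the single-cell median and 37 (58.7%) above the single-cell upper quartile of 173563, while 1 exceeded 2 times the single-cell median. At the low end, 2 multiple-cell chambers and 8 single-cell chambers held fewer than 50000 counts. Empty chambers had a median of 20731, but 63 of them reached 50000 counts and the highest held 319287, so some chambers labelled empty were as deep as those with cells.

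The gain in genes was of the same order. A median of 7097 genes (1850 to 9256) had at least 1 count in a multiple-cell chamber and 6031 (2719 to 9529) in a single-cell chamber, a ratio of 1.18, and the difference was larger for genes with 20 or more counts, at 3578 and 2824 (ratio 1.27). After each chamber was thinned to 50000 counts, which left out 2 multiple-cell and 8 single-cell chambers, the medians were 5680 and 4735 genes. Among chambers with totals between 150000 and 200000, which hold 41.3% of multiple-cell and 36.8% of single-cell chambers, the medians were 6898.5 and 6335 genes. Median totals within that range were 176934 and 166679, so depth was close but not equal. The order of the medians was the same after thinning and within that range. Deep empty chambers had a median of 4429 genes after thinning, and the 9 empty chambers in that range had 7349, more than either group.

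**Figure D1:**
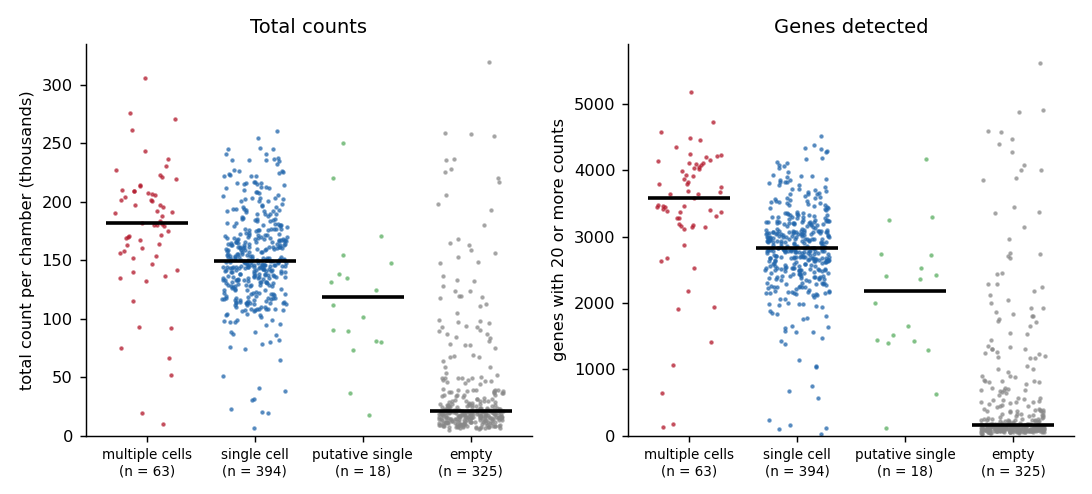
Total count per chamber (left) and genes with 20 or more counts (right), 1 point per chamber and a bar at each median. The multiple-cell chambers (median 181883 counts and 3578 genes) sit above the single-cell chambers (149648 and 2824) and overlap them.

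The extra genes were mainly those found in a minority of single cells. A gene was taken as detected in a chamber at 20 or more counts, since the counts of genes in chambers had 2 modes, with few values near 17 or 18 and a second peak at 35 counts in multiple-cell and 39 in single-cell chambers. Because of this second peak a count may not stand for 1 molecule, and intervals from summed counts may be too narrow. For the 2376 genes detected in 20 to 40% of single-cell chambers, the median share was 27.4% there and 34.9% in multiple-cell chambers, and 89.1% of these genes were detected in a larger share of multiple-cell chambers. For the 1043 genes detected in 40 to 60%, the medians were 48.7 and 58.7%. The difference closed for common genes: for the 140 genes in at least 95% of single-cell chambers, the medians were 97.1 and 96.8%.

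Where a gene outside the most common ones was detected, its level in a multiple-cell chamber was slightly lower. In the class of 20 to 40%, the median over genes of the mean count was 38.7 in the multiple-cell chambers that held the gene and 41.9 in the single-cell chambers. The order turned for common genes, with 63.8 against 61.4 counts in the class of 80 to 95% and 98.7 against 93.6 in that of at least 95%. Within totals of 150000 to 200000 it did not turn there, with 52.8 against 57.4 and 74 against 79.7 counts. Restricted to totals of 150000 to 200000, the detection shares in the class of 20 to 40% were 30.8% in multiple-cell and 27.6% in single-cell chambers, a smaller difference than over all chambers. In the class of 40 to 60% they were 57.7 and 48.3%, and in that of 60 to 80% 76.9 and 68.97%, against 77.8 and 69.3% over all chambers. The classes were set on the single-cell shares, and the multiple-cell shares are not bound by them.

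**Figure D2:**
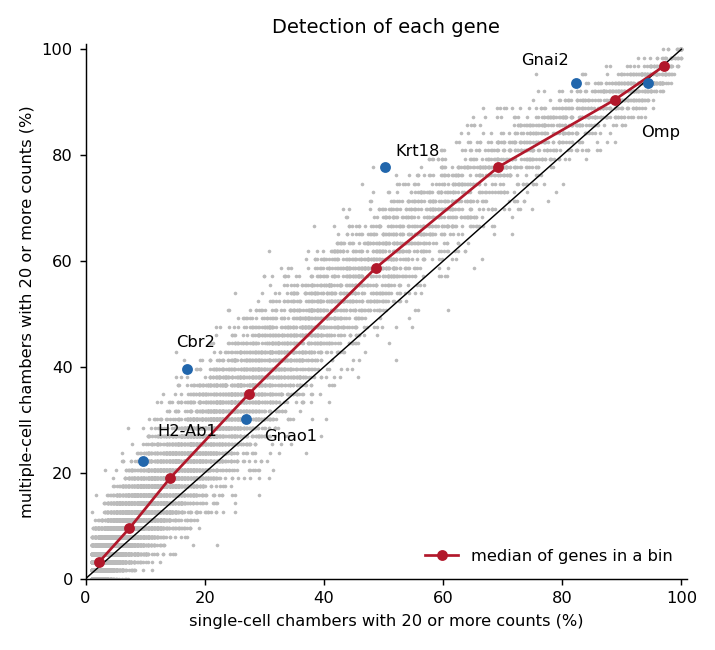
Share of multiple-cell chambers (vertical) against share of single-cell chambers (horizontal) with 20 or more counts of a gene, for each gene detected in at least 1% of single-cell chambers. Red points are medians of genes in classes of single-cell share, and the black line marks equal shares. The medians lie above the line except for the most common genes, and Krt18, Cbr2 and H2-Ab1 lie well above the medians.

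Apical with basal identity met more often in multiple-cell chambers by the G protein markers. Per 10000 counts of a chamber, Gnai2 ranged from 0.194 to 64.2 (median 5.87) in multiple-cell chambers and from 0.06 to 16.7 (median 6.44) in single-cell chambers. Gnao1 ranged from 0 to 6.93 (median 0.101) and from 0 to 11.3 (median 0.120). The groups overlapped widely for both genes, and the value of 64.2 belongs to the multiple-cell chamber with the lowest total. Both genes reached 30 counts in 12 of 63 multiple-cell chambers (19.05%, interval 10.2 to 30.9%), in 32 single-cell chambers (8.12%, 5.62 to 11.3%) and in 13 empty chambers (4%). The intervals of the multiple-cell and single-cell shares overlap slightly. Within totals of 150000 to 200000 the shares were 8 of 26 (30.8%, 14.3 to 51.8%) and 10 chambers, or 6.90% (3.36 to 12.3%), and these intervals do not overlap.

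Taken by itself, Gnao1 reached 30 counts in nearly the same share of both groups, 16 multiple-cell chambers (25.4%, interval 15.3 to 37.9%) and 99 single-cell chambers (25.1%, 20.9 to 29.7%). After correction for spread of reads between chambers, 7 (11.1%) and 48 (12.2%) were left, and Gnai2 passed that correction in 0 chambers of either group. Before correction, Gnao1 stood without Gnai2 in 4 multiple-cell chambers (6.35%, interval 1.76 to 15.5%) and in 67 single-cell chambers (17.01%, 13.4 to 21.1%). Gnai2 without Gnao1 stood at 73.02% and 71.3%. Gnai2 itself reached 30 counts in 92.1% and 79.4%, although its summed level was not higher, at 541 and 570 CPM (counts per 1000000 of the group's total), so no order is read from that share.

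After thinning to 50000 counts, with the minimum lowered to 10, the pair was present in 10 of 61 multiple-cell chambers (16.4%) and 30 single-cell chambers (7.77%). The 63 empty chambers deep enough to be thinned held it in 16 cases (25.4%), a larger share than in either group. Where the pair in these chambers came from cannot be told apart from the values used here, since how a chamber was scored as empty is not given.

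**Figure D3:**
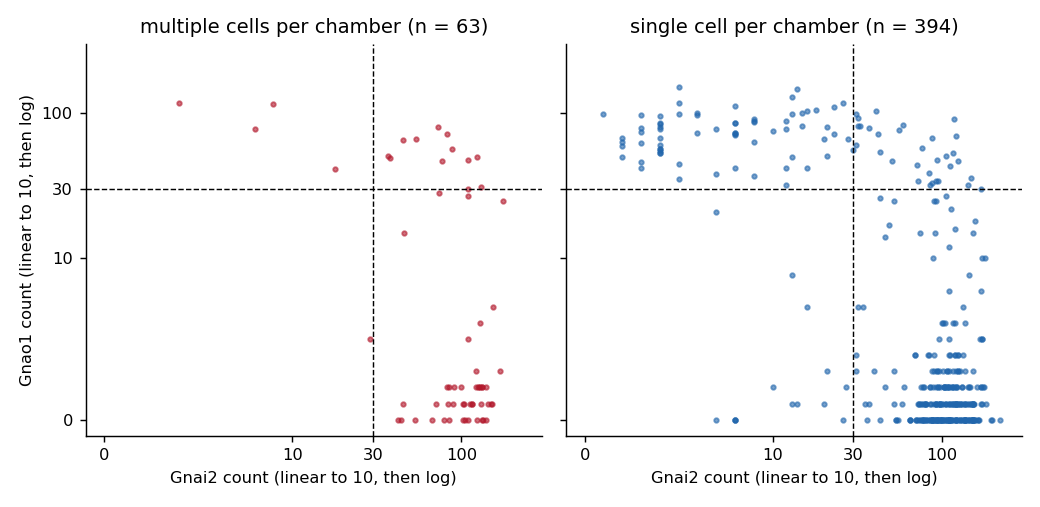
Counts of Gnai2 and Gnao1 in each multiple-cell chamber (left) and single-cell chamber (right), on axes that are linear to 10 and logarithmic above. Dashed lines mark 30 counts: 12 multiple-cell and 32 single-cell chambers lie in the upper right corner.

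A second pair of markers gave a higher ratio of shares, with a gap in percentage points close to that of the first, and the other pairs gave a smaller gap or none. Meis2 is a transcription factor gene of apical neurons and Tfap2e (AP-2ε) of basal neurons. Both reached 10 counts in 8 of 63 multiple-cell chambers (12.7%, interval 5.65 to 23.5%) and 11 single-cell chambers (2.79%, 1.40 to 4.94%), and in 0.923% of the empty chambers. After thinning the shares were 11.5% and 3.37%. Nrp2 and Robo2, guidance receptor genes of apical and basal axons, met in 4 multiple-cell chambers (6.35%, 1.76 to 15.5%) and 16 single-cell chambers (4.06%, 2.34 to 6.51%). A V1R with a V2R gene, each at 50 or more counts, met in 6 multiple-cell chambers (9.52%, 3.58 to 19.6%) and 40 single-cell chambers (10.2%, 7.35 to 13.6%), and the second interval lies within the first. After correction for spread of reads between chambers that share a title index, the order turned, to 9.52% and 8.12%. At least 2 of these 4 pairs were present in 10 multiple-cell chambers (15.9%, 7.88 to 27.3%) and 16 single-cell chambers (4.06%, 2.34 to 6.51%).

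The 12 chambers with both G protein genes differed in what else they held. Values of single chambers are given here per 10000 counts of that chamber. Multiple-cell chamber 16, with a total of 200562, had 3.64 of Gnai2, 4.04 of Gnao1, 10.5 of the V1R gene Vmn1r37 and 10.3 of the V2R gene Vmn2r23. It met all 4 pairs, with 33 counts of Meis2, 30 of Tfap2e, 48 of Nrp2 and 21 of Robo2, and was the only multiple-cell chamber to do so. No other chamber in its title row had more than 9 counts of Vmn1r37 or 1 of Vmn2r23, and among chambers of its title number the highest counts were 48.6% of its own for Vmn1r37 and 43 counts for Vmn2r23. The title row and title number are the 2 indices in a chamber's name, and chambers that share an index can show spread of reads between them.

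Chamber 62 held Vmn1r84 at 7.56, Vmn1r178 at 6.23 and Vmn2r27 at 5.57 per 10000 counts, with Gnai2 at 4.49 and Gnao1 at 2.91. None of its 3 receptor genes exceeded 5 counts elsewhere in its row or number. Chamber 39 held Vmn2r78 at 8.35 and Vmn1r56 at 6.54, with Gnai2 at 5.87 and Gnao1 at 2.39. Both chambers held V1R and V2R genes together with both G protein genes.

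Chamber 35 held Vmn1r78 at 9.39 and Vmn2r21 at 6.73 per 10000 counts, with Gnai2 at 4.07 and Gnao1 at 1.11. It also held the sustentacular gene Cbr2 at 7.69, so it carried markers of apical neurons, basal neurons and supporting cells. Chamber 18 held Vmn2r90 at 14.7 and Vmn1r4 at 9.41, but the other chambers of its title row had medians of 29 and 18 counts of these genes. Both genes passed the correction for spread of reads in chamber 18, and the part of such spread in its counts was not tested further. In chamber 50, Vmn1r75 (21.06) and Vmn1r90 (19.1) met Vmn2r17 (10.7), while Gnao1 stood at 1 count, and a chamber of its title number held more counts of Vmn1r90 than it did. In chamber 4, by contrast, Gnai2 (38 counts) and Gnao1 (49 counts) met with no receptor gene above 45 counts.

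Counted one by one, 455 receptor genes outside family C were in the table, and 78 of them reached 50 counts in some multiple-cell chamber: 59 V1R genes (22.2% of those in the table), 17 V2R genes (9.29%) and 2 of 6 formyl peptide receptor genes. In the larger set of single-cell chambers 49.5% of the 455 did so. A further 15 of the 455 (3.30%) reached 50 counts in a multiple-cell chamber and in no single-cell chamber. The like share over all genes was not computed, so these 15 are not read as particular to multiple-cell chambers. The receptor genes at 50 counts in the most multiple-cell chambers were V1R genes of chromosomes 6 and 7. Vmn1r37 (GRCm38 chromosome 6, 66729382 to 66733039, plus strand) and Vmn1r36 (chromosome 6, 66715257 to 66719168, minus strand) each reached it in 4, with at most 10.5 and 7.49 per 10000 counts. Vmn1r58 (chromosome 7, 5401681 to 5413396, minus strand) also reached it in 4, with a highest count of 220. Single-cell chambers reached 50 counts of these genes in 13, 7 and 10 cases.

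Vmn1r75, Vmn1r184, Vmn1r34, Vmn1r90 and Vmn1r185 were among those that reached 50 counts in 3 multiple-cell chambers. For Vmn1r75 (chromosome 7, 11874630 to 11884307, plus strand) these were chambers 29, 34 and 50, with 13.3, 16.5 and 21.06 per 10000 counts, and 1 single-cell chamber reached that level. For Vmn1r34 they were chambers 26, 49 and 13, with 8.43, 8.24 and 4.63 per 10000 counts, again against 1 single-cell chamber. Both genes rest on 3 chambers. Another chamber with the same title number as chamber 49 held 180 counts of Vmn1r34. The gene passed the correction for spread of reads in chamber 49, and the part of spread between these chambers was not tested further.

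Many receptor genes that met in a chamber share sequence, so that reads of 1 transcript could be given to both. Vmn1r36 and Vmn1r37 reached 50 counts in the same 4 multiple-cell chambers, with 5.78 and 10.5 per 10000 counts in chamber 16, 5.82 and 9.67 in chamber 19, 7.49 and 6.55 in chamber 30 and 4.92 and 8.55 in chamber 54. Vmn1r184 and Vmn1r185 met in the same 3. Below, 60 bases of the coding sequences show how alike such pairs are, with the base that differs in capitals (GENCODE vM21 transcripts, GRCm38). For Vmn1r36 and Vmn1r37 the longest run of identical coding bases is 396. For Vmn2r21 and Vmn2r22, V2R genes at 6.73 and 6.62 per 10000 counts in chamber 35, that run is 1248 bases.
Vmn1r36: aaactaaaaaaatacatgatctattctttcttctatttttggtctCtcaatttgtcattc
Vmn1r37: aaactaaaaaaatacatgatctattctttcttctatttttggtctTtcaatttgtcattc
Vmn2r21: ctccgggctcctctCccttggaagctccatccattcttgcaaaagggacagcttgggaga
Vmn2r22: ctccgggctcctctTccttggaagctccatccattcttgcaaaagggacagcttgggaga

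Of the pairs of receptor genes that both reached 50 counts in a multiple-cell chamber, 53 (42.7%) shared at least 1% of the 50-base words of their transcripts, and 78 pairs lay on the same chromosome. Genes that share sequence in this sense were counted once, as 1 distinct receptor. Chamber 46 shows the effect: it had 10 receptor genes at 50 or more counts, among them Vmn1r100 and Vmn1r148 at 240 each, but 3 distinct receptors.

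By the plain count, 34 of 63 multiple-cell chambers (53.97%, interval 40.9 to 66.6%) had 2 or more receptor genes at 50 counts, against 41.1% of single-cell chambers (36.2 to 46.2%) and 52 empty chambers (16%). By distinct receptors the shares were 26 of 63 (41.3%, 29.01 to 54.4%) and 26.1% (21.9 to 30.8%), and for 3 or more they were 9 of 63 (14.3%, 6.75 to 25.4%) and 20 single-cell chambers (5.08%, 3.13 to 7.73%). The multiple-cell shares were the higher ones throughout, and each pair of intervals overlaps. After thinning to 50000 counts, with a minimum of 17, the plain shares were 52.5% and 41.5%, and 65.1% among the 63 deep empty chambers.

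The higher number came with chambers that held several V1R genes. Of the 26 multiple-cell chambers with 2 or more distinct receptors, 20 held V1R genes only and 6 held V1R with V2R genes. Chambers with 2 or more V1R and no V2R gene made up 31.7% of multiple-cell chambers (interval 20.6 to 44.7%) and 52 single-cell chambers, or 13.2% (10.02 to 16.9%), and these intervals do not overlap. No multiple-cell chamber held 2 or more distinct receptors of the V2R family alone, which allows a share of up to 4.76% by the limit of 3 chambers (exact interval up to 5.69%), and 10 single-cell chambers (2.54%) did. Chambers with 1 distinct receptor were fewer among the multiple-cell chambers, at 20 (31.7%) with a V1R and 6 (9.52%) with a V2R, against 44.7% and 15.2%. In 10 multiple-cell chambers (15.9%) and 52 single-cell chambers (13.2%) no receptor gene reached 50 counts.

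V1R genes met in several chambers at high levels of each. Chamber 2 held Vmn1r184 at 7.81, Vmn1r90 at 6.76 and Vmn1r78 at 5.72 per 10000 counts, and another chamber of its row held 56.02% of its count of Vmn1r184. Chamber 44 held Vmn1r13 at 15.8 and Vmn1r58 at 12.3, and another chamber of its row held 93.2% as many counts of Vmn1r58. Chamber 29 held Vmn1r75 at 13.3 and Vmn1r89 at 8.45, while a chamber of its title number held 115.6% of its count of Vmn1r89. Each receptor gene named for these 3 chambers still passed 50 counts after the correction for spread of reads between chambers. The part of spread in their counts was not tested further. In these 3 chambers no more than 3 distinct receptors passed the minimum, and no multiple-cell chamber had more than 3.

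**Figure D4:**
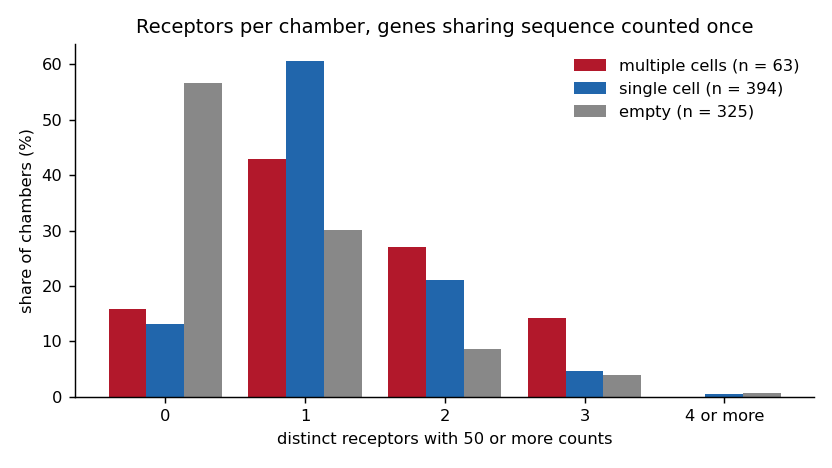
Share of chambers with 0, 1, 2, 3 or 4 and more distinct receptors at 50 or more counts, for multiple-cell, single-cell and empty chambers. Multiple-cell chambers have fewer cases with 1 receptor and more with 2 or 3 than single-cell chambers.

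Receptor transcripts took a like part of the counts in both groups. All receptor genes outside family C together made up 0.0177 to 2.37% of the counts of a multiple-cell chamber (median 0.210%) and 0.0169 to 1.47% of those of a single-cell chamber (median 0.215%). Summed over chambers, V1R genes made up 1696 CPM in multiple-cell and 1498 in single-cell chambers, and V2R genes outside family C 588 and 875. V2R transcript outside family C was thus lower in multiple-cell chambers and V1R transcript higher, and fewer cells of a type and less RNA per cell cannot be told apart. Family C Vmn2r1, a V2R co-receptor gene, stood at 52.7 and 47 CPM.

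Omp, the gene whose promoter drives the sorted GFP, had a median of 88 counts in multiple-cell and 87 in single-cell chambers, against 21 in empty ones. Per 10000 counts it ranged from 0.365 to 13.4 (median 5.11) in multiple-cell and from 0.130 to 16.9 (median 5.68) in single-cell chambers. At 30 or more counts it was present in 90.5% of multiple-cell chambers (interval 80.4 to 96.4%) and 91.9% of single-cell chambers (88.7 to 94.4%). Summed over chambers, Omp stood at 489 against 577 CPM (ratio 0.85). Mitochondrially encoded genes took a median of 1.14% and 1.21% of counts, and 3.41% in empty chambers.

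Markers of supporting cells were present in a larger share of multiple-cell chambers. A list of 8 sustentacular genes had at least 2 members at 10 or more counts in 33 of 63 multiple-cell chambers (52.4%, interval 39.4 to 65.1%), 32.5% of single-cell chambers (27.9 to 37.4%) and 48 empty chambers (14.8%). Krt8 and Krt18, keratin genes that many chambers without other sustentacular genes also held, belong to this list. Without them, at least 2 of the other 6 genes were present in 11 multiple-cell chambers (17.5%, 9.05 to 29.1%), 24 single-cell chambers (6.09%, 3.94 to 8.93%) and 9 empty chambers (2.77%). Thinned to 50000 counts with a minimum of 3, these shares were 21.3%, 6.74% and 3.17%. The cells had been sorted as GFP positive, a gate that should leave sustentacular cells out, and the part of the gate or of free RNA in these shares was not tested.

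Cbr2, a carbonyl reductase gene, was the most abundant of these. Per 10000 counts it ranged from 0 to 21.7 (median 0.359) in multiple-cell chambers and from 0 to 25.7 (median 0.133) in single-cell chambers. It reached 10 counts in 28 of 63 (44.4%, interval 31.9 to 57.5%) and 81 single-cell chambers (20.6%, 16.7 to 24.9%), with 21.5% of empty chambers at that level. Its summed level was 200.4 and 110.6 CPM. Cyp2a5, a cytochrome P450 gene, stood at 46.9 and 19.4 CPM, and Sox2, a transcription factor gene of supporting and stem cells, at 33.9 and 12.5. Ces1d, a carboxylesterase gene, reached 10 counts in 14.3% and 4.57% of chambers. Cyp1a2 was present in 1 multiple-cell chamber, and Aldh1a7 was at 0 in all 63.

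The 11 chambers were of 2 kinds by their Omp count. In 9 of them Omp reached 30 counts, as in chamber 40 with Cbr2 at 11.1, Cyp2a5 at 2.81 and Omp at 3.52 per 10000 counts, and in chamber 52 with Cbr2 at 9.35 and Omp at 5.56. In chambers 1 and 47 Omp stood at 0.444 and 0.867 per 10000 beside Cbr2 at 12.9 and 13.1, and no receptor gene reached 50. Sustentacular genes met Omp at 30 or more counts in 14.3% of multiple-cell chambers (interval 6.75 to 25.4%) and in 13 single-cell chambers, or 3.30% (1.77 to 5.58%). They met a receptor gene at 50 counts in 5 multiple-cell chambers and 13 single-cell chambers.

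Krt18, a keratin gene of simple epithelia, showed a wide gap for a gene common in single cells. Per 10000 counts it ranged from 0 to 15.1 (median 2.51) in multiple-cell chambers and from 0 to 13.5 (median 1.69) in single-cell chambers. It reached 10 counts in 55 of 63 (87.3%, interval 76.5 to 94.3%) and in 53.05% of single-cell chambers (47.98 to 58.1%), while its summed level differed less, at 292.7 and 244.7 CPM. Krt17, a keratin gene of basal cells, was at 0 in most chambers of both groups but reached 10 counts in 7 multiple-cell chambers (11.1%, 4.59 to 21.6%) and 11 single-cell chambers (2.79%, 1.40 to 4.94%). The stem cell gene Trp63 reached 10 counts in none of either group.

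Antigen presentation genes of MHC class II moved with the sustentacular genes. At least 2 of Cd74 (the invariant chain), H2-Aa, H2-Ab1 and H2-Eb1 reached 10 counts in 16 multiple-cell chambers (25.4%, interval 15.3 to 37.9%), 30 single-cell chambers (7.61%, 5.20 to 10.7%) and 12 empty chambers (3.69%). Per 10000 counts, H2-Ab1 ranged from 0 to 11.6 (median 0.0511) in multiple-cell and from 0 to 32.2 (median 0) in single-cell chambers. Its summed level was 108.1 and 64.6 CPM. H2-Eb1 stood at 80.3 and 39.8 CPM. All 11 multiple-cell chambers with sustentacular genes also held MHC class II genes, and 22 of the 24 such single-cell chambers did. The 10 other genes of the myeloid list were near 0: C1qb, Fcer1g and Lyz2 each reached 10 counts in 1 multiple-cell chamber, at 28, 31 and 11 counts, and Ptprc, Tyrobp, Csf1r, C1qa, C1qc, Aif1 and Laptm5 in none. Among single-cell chambers, Tyrobp did so in 9, and C1qb, Fcer1g, Lyz2 and Csf1r in 2 each.

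By the rule of 2 members, the other lists of cells outside the neurons were at or near the floor. Some single members were not. Apoe, of the ensheathing glia list, reached 10 counts in 9.52% of multiple-cell and 3.55% of single-cell chambers, and the fibroblast gene Dcn in 6.35% and 2.54%. By summed level, 3 of 4 tested ensheathing glia genes and 2 of 7 tested fibroblast genes stood above 0 on the log2 scale. Neither lymphocyte, endothelial, fibroblast, ensheathing glia, pericyte and smooth muscle nor progenitor and cycling genes had 2 members at 10 counts in any multiple-cell chamber, with the same limits on each share. Basal stem cell genes and gland and secretory genes each had them in 1. Neuronal lists were present in like shares of both groups: mature neuron genes in 93.7% and 92.6%, immature neuron genes in 98.4% and 99.2%, apical neuron genes in 90.5% and 86.8% and basal neuron genes in 31.7% and 28.2%. The list of genes more typical of main olfactory neurons, which Gnb1 leads, was present in 79.4% and 71.1%. Gnb1 is a widely expressed G protein subunit gene, with medians of 7.96 and 9.54 per 10000 counts.

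**Figure D5:**
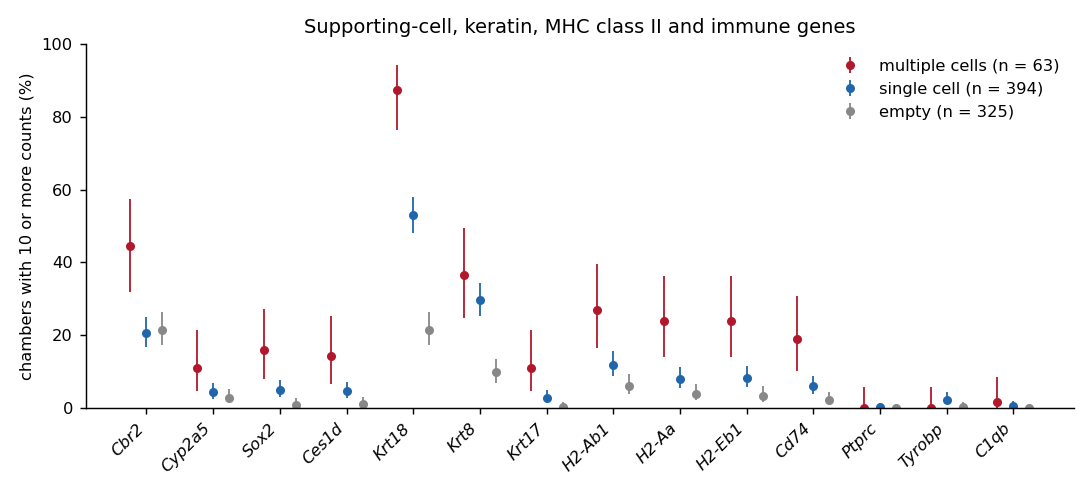
Share of chambers with 10 or more counts of each gene in multiple-cell, single-cell and empty chambers, with exact 95% intervals as bars. Krt18, Cbr2 and the 4 MHC class II genes lie higher in multiple-cell chambers, and Ptprc, Tyrobp and C1qb lie near 0.

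Across all genes, 16586 had at least 100 counts over both groups. A gene was called apart by size alone, with no test: at least 1.5-fold between the groups' CPM, a ratio of at least 5 to 4 the same way in chambers of title numbers 1 to 10 and of 11 to 20, and 10 or more counts in at least 10% of chambers of the higher group. By this rule 864 genes (5.21%) were apart, of which 670 (4.04% of those tested) were higher in multiple-cell chambers and the others (1.17%) higher in single-cell chambers. Most were sparse: the 670 reached 10 counts in a median of 12 of the 63 chambers, and 29.6% of them in at least 25%. The highest chamber alone gave a median of 14.4% of a gene's counts in multiple-cell chambers. With the highest chamber of each gene left out of both groups, 2.33% were higher in multiple-cell and 2.73% in single-cell chambers. This takes 1 chamber from each group, a larger part of the smaller multiple-cell group. A shift toward single-cell chambers is thus in part built in. Between chambers with totals of 150000 to 200000 the shares were 7.28% and 4.41%, and with no scaling to totals 7.97% and 0.476%. The minimum share of chambers was set on the higher group alone. A gene higher in multiple-cell chambers could therefore pass with as few as 7 of them. Without that minimum, slightly more genes were higher in single-cell than in multiple-cell chambers, as given in the closing section on processing. The split between the directions therefore depends on these choices, the minimum share among them.

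Of the lists, 3 of 6 tested sustentacular genes were called higher, with a median over the list of 0.70 on the log2 scale against 0.02 over all genes tested. They were Cbr2 (1.81-fold, interval 1.73 to 1.90), Cyp2a5 (2.42-fold, 2.18 to 2.69) and Sox2 (2.71-fold, 2.39 to 3.08). With the chambers that held at least 2 sustentacular genes other than Krt8 and Krt18 left out, Sox2 stood lower in multiple-cell chambers, at -1.57 on the log2 scale. Sox2 is itself one of the genes that chose the chambers left out. Of 9 tested myeloid and antigen presenting genes, 4 were called higher, all of MHC class II: Cd74 (1.86-fold), H2-Aa (1.91-fold), H2-Ab1 (1.67-fold) and H2-Eb1 (2.02-fold), and the list's median was 0.74. Of the 9, 6 stood above 0 on the log2 scale. Tyrobp (0.0898 against 6.43 CPM), Csf1r (0.0898 against 1.65) and Lyz2 (0.988 against 1.92) were lower in multiple-cell chambers. The calls therefore concern MHC class II genes and not the list as a whole. Without the chambers with sustentacular genes, H2-Ab1 stood at -0.077 on the log2 scale. Krt17 was called higher at 3.83-fold (3.39 to 4.32), as 1 of 2 tested basal stem cell genes.

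Of 9 immediate early genes, which neurons induce on activity or handling, 3 were called higher, against 4.04% of all genes tested. Fosb stood at 94.9 and 44.6 CPM (2.13-fold), Ier2 at 2.01-fold and Nr4a1 at 1.80-fold, with a list median of 0.49. Fosb reached 10 counts in 28.6% of multiple-cell and 13.7% of single-cell chambers. Of 14 endoplasmic reticulum chaperone and stress genes, 1 was called, Pdia4 at 1.80-fold, a share near that of all genes tested, and the list's median was -0.18. None of 20 tested mitochondrially encoded genes or 86 cytosolic ribosomal protein genes was called, with medians of -0.03 and -0.10.

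The neuronal lists had no member called higher. Of 12 basal neuron genes, Robo2 was called higher in single-cell chambers, at 35.4 CPM in multiple-cell and 60.1 in single-cell chambers, and the list's median was -0.33. Between chambers with totals of 150000 to 200000 it was instead higher in multiple-cell chambers, at 0.38 on the log2 scale. Apical, mature and immature neuron lists had medians of -0.05, -0.20 and -0.20, below that of all genes tested. Among the tested receptor genes outside family C, 1 was called each way. Vmn1r34 was higher in multiple-cell chambers at 5.37-fold, and Vmn1r85 was higher in single-cell chambers. Both are smaller shares than the 4.04% and 1.17% over all genes tested. Vmn1r34 stood at -0.068 on the log2 scale between chambers with totals of 150000 to 200000. The medians were -0.46 over tested V1R genes and -1.76 over 98 tested V2R genes, most of which reached 50 counts in no multiple-cell chamber. Summed V1R transcript was nonetheless higher in multiple-cell chambers, at 1696 against 1498 CPM. A median over genes weighs each gene alike, and 22.2% of V1R genes reached 50 counts in the smaller multiple-cell group, against 51.1% in the larger single-cell group. The V1R median is therefore not read as the level of the family. The lymphocyte list had no gene with enough counts. The endothelial, gland and secretory and progenitor lists had 1 tested gene each, and pericyte, ensheathing glia and fibroblast lists had 3, 4 and 7, none of them called.

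The largest folds belonged to genes at 10 counts in few chambers. Zfp619, a zinc finger gene, stood at 27.9 and 3.07 CPM (9.09-fold, interval 7.55 to 10.97) and reached 10 counts in 8 multiple-cell and 5 single-cell chambers. Gab3, an adaptor protein gene, and Myo10, an unconventional myosin gene, also did so in 8 and 5 chambers, at 7.97-fold and 7.45-fold. Gja1, which encodes the gap junction protein connexin 43, stood at 6.07-fold with 8 chambers in each group. Without the chambers with sustentacular genes named above, Gja1 turned to -0.72 and Pdzk1ip1, which is named next, to -1.88 on the log2 scale. The other genes among the 12 largest folds were Ppp1r37 (6.06-fold), Adat3 (5.97-fold), Dmrta1 (5.45-fold), Vmn1r34, Pdzk1ip1 (5.20-fold), Lmcd1 (5.16-fold), Cdc42bpg (5.02-fold) and Fam35a (4.73-fold). Fam35a was the most widespread, at 10 counts in 16 chambers of each group, or 25.4% and 4.06%.

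Genes called higher in single-cell chambers were at 10 counts in a median of 14.5% of those chambers. Vmn1r85 stood at 11.9 CPM in multiple-cell and 56.8 in single-cell chambers, and reached 10 counts in 3 and 43 chambers. Cox7a1, a subunit gene of cytochrome c oxidase, stood at 13.9 and 52.5 CPM, in 3 and 64 chambers. Usp54, Polr3a, Atp13a3, Gmeb1, Taf12, Ccdc97, Slc2a8, Cnpy3, Qsox2 and Gdap2 made up the rest of the 12 largest, each at 10 counts in 3 to 6 multiple-cell and 41 to 59 single-cell chambers. Each of these folds rests on at most 6 multiple-cell chambers with 10 or more counts.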

How the data were processed

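The authors deposited 1 table of counts per gene and chamber, with 28963 genes and whole values from 0 to 662. The submitters' processing notes name STAR 2.5.4b with GRCm38/mm10, featureCounts 1.6.1, UMI-tools 0.5.3, SAMtools 1.5 and bcl2fastq. Their order and settings, including how reads that match several genes were shared, are not given in the sources used here. With 5-base identifiers there are 1024 possible tags per gene and chamber.

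Columns were joined to labels by title, and 1 column of no sample was not used. The groups are the chamber states of the labels: 63 multiple-cell, 394 single-cell, 18 putative single-cell and 325 empty chambers. Of the multiple-cell and single-cell chambers, 26 and 145 had totals of 150000 to 200000. No chamber was filtered out, no doublet caller was run and no clusters were made. Because the labels do not link chambers to pools, each group counts as 1 sample and no statistical test of a difference was made. Shares have exact 95% intervals, and a fold between sums has an interval from the exact binomial split of its counts, both for counting error only. Each chamber was also thinned to 50000 or 100000 counts. Receptor genes were taken as sharing sequence where at least 1% of 50-base words of GENCODE vM21 transcripts matched, and 444 of 455 had transcripts. The smaller fold in the gene calls was 1.25. To correct for spread between chambers, a count was set to 0 unless it reached 5 plus 3 times the 75th percentile among chambers with the same title index. The code of the gene calls was checked on simulated data with known folds.

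The genes named were G protein and pair markers, members of the marker lists, the 12 largest called folds each way and the 8 receptor genes at 50 counts in the most multiple-cell chambers, plus receptors of chambers shown as examples, which were chosen after their values were seen. The groups, lists and minimums were chosen with earlier results of these data known. Work used Python with numpy, pandas, scipy and matplotlib.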

Additional observations from a re-analysis of the deposited data

Results flagged for a closer look

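The 18 putative single-cell chambers entered no main comparison, and were added to the single-cell chambers in a further setting only. Gnao1 at 30 or more counts without Gnai2 was present in 44.4% of them (8 chambers), and 2 or more receptor genes at 50 counts in 66.7% (12 chambers). Both shares lie above the interval of the empty chambers, whose shares were 6.77% and 16%. The minimums were not scaled to depth, and the median totals were 118238 in putative single-cell and 20731 in empty chambers. This difference therefore cannot be told apart from one of depth. The single-cell shares of both measures, given above, also exceeded those of the empty chambers.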

How the results depend on the processing

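The ratio of multiple-cell to single-cell chambers stayed above 1 under every setting run: 1.20 to 1.27 for the median total, 1.09 to 1.31 for genes detected, 1.74 to 4.46 for the share with Gnai2 and Gnao1, 1.14 to 2.25 for 2 or more receptor genes, 1.46 to 3.16 for sustentacular and 1.97 to 4.96 for myeloid and antigen presenting markers. In that last list, Tyrobp, Csf1r and Lyz2 went the other way by summed level. The myeloid ratio without Cd74 and the MHC class II genes rests on at most 1 multiple-cell chamber. Of the genes left, C1qb, Fcer1g and Lyz2 each reached 10 counts in 1 such chamber and the others in none. The ratio of genes detected was 1.18 at 1 count and 1.27, 1.31 and 1.27 at 2, 10 and 20 counts, and 1.09 within totals of 150000 to 200000. The receptor ratio was 1.31 at 50 counts and 2.25 at 100 counts. The sustentacular ratio was 1.61, and it was 2.61 with at least 3 markers, 2.87 without Krt8 and Krt18 and 3.16 without them after thinning to 50000 counts. With single-cell chambers weighted by title row, the ratios were 1.20 for totals and for genes, 2.90 for the pair, 1.33 for receptors, 1.59 for sustentacular and 3.54 for myeloid and antigen presenting markers.

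Of the genes tested, 4.04% were higher in multiple-cell and 1.17% in single-cell chambers. These shares became 7.97% and 0.476% with no scaling to totals, 2.40% and 0.694% of more genes with no minimum sum, 9.14% and 9.62% with no minimum share of chambers, and 2.33% and 2.73% with each gene's highest chamber left out. That last setting takes a larger part of the smaller multiple-cell group, so its shift is in part built in. Subtracting the mean of the empty chambers gave 5.91% and 2.01%. Totals of 150000 to 200000 alone gave 7.28% and 4.41%, where 33.3% of the genes higher in multiple-cell chambers were among the 670, and a share of chambers at 20 counts gave 11.2% and 0.551%. The order turned on the log2 scale for Gja1 (-0.72), H2-Ab1 (-0.077), Pdzk1ip1 (-1.88) and Sox2 (-1.57) with chambers holding sustentacular markers left out, a choice that Sox2 itself enters, and for Robo2 (0.38) and Vmn1r34 (-0.068) within totals of 150000 to 200000.

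Settings on totals of 150000 to 200000, on the share of chambers at 20 counts, without Krt8 and Krt18, without MHC class II genes, without chambers holding sustentacular markers, by title row, and with both receptor corrections together were chosen after seeing the data, as was detection at 20 counts. The correction for spread between chambers gave no value for the pair, because Gnai2 passed it in 0 chambers of either group, and it left Gnao1 at 30 counts in 7 of 16 multiple-cell and 48 of 99 single-cell chambers. It cannot tell spread from expression for genes that many chambers express. No paired analysis was possible because the replicate numbers only name chambers and pair none across groups.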
